A study of Mus musculus with 14 samples.

Results

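The metabotropic glutamate receptors are a family of G protein-coupled receptors for the transmitter glutamate, and 6 of their genes were followed here across the mouse hippocampus: Grm2, Grm3, Grm4, Grm5, Grm7 and Grm8. They were taken by gene symbol from a table of 22485 genes measured in 14 RNA-seq libraries. Each library came from 1 of 3 hippocampal subregions, CA1, CA3 or the dentate gyrus (DG). To dissociate it, tissue was digested with pronase (proteases, 1 mg/ml) for 75 min in aCSF, an artificial cerebrospinal fluid, at room temperature. It was next vortexed and spun down, and trituration followed in aCSF containing 1% FBS. Control tissue was homogenised with no such step, and 1 RNA kit served both. The groups were CA1 dissociated (3 libraries), CA1 control (3), CA3 dissociated (2), CA3 control (2), DG dissociated (2) and DG control (2). All 14 libraries came from 1 wild-type C57BL/6 mouse, whose age the labels do not give, and carry 1 date and 1 sequencing job. The replicates are therefore tissue samples of 1 animal, and every p-value below measures the spread between such samples and not between mice.

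Metabotropic receptors are dimers with a large extracellular glutamate-binding domain, and they act through G proteins where ionotropic glutamate receptors open a pore. Group I receptors, here Grm5 (mGluR5), couple to Gq, phospholipase C and the release of calcium by inositol trisphosphate, and sit mostly on the postsynaptic side. Group II receptors (Grm2 and Grm3) and group III receptors (Grm4, Grm7 and Grm8) couple to Gi/o, lower adenylyl cyclase activity and mostly restrain transmitter release. In the hippocampus, mGluR2 is known from the mossy fibres, the axons of the dentate granule cells, mGluR3 is found in glia as well as in neurons, and mGluR7 sits at presynaptic active zones.

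Total counts ran between 65887 and 4782767 in the dissociated libraries and between 1285654 and 6646655 in the control libraries. Of the dissociated libraries, 3 held under 500000 counts: CA1 replicates 2 and 3 and DG replicate 3. CPM below are counts scaled to a common library size. Excitatory neuron markers (7 genes) summed to between 3590 and 11145 CPM in dissociated and between 6063 and 8043 CPM in control libraries. Oligodendrocyte markers (10 genes) summed to 1335 to 12044 CPM in dissociated and 584 to 3646 CPM in control libraries, and microglial markers (10 genes) to 605 to 2202 CPM in dissociated and 278 to 511 CPM in control libraries. Of these lists, 8 of 10 oligodendrocyte and 7 of 10 microglial markers were called higher in dissociated tissue, and edgeR called 0 of 7 excitatory neuron markers, with 0 at an unadjusted p under 0.05 and 0 by DESeq2. In bulk tissue, fewer cells of a type and less RNA per cell cannot be told apart.

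Several libraries went against, or mixed, their subregion labels. CA1 dissociated replicate 3 had 151.8 CPM over 6 CA1 pyramidal markers and 957 CPM over 6 CA3 pyramidal markers, while the other CA1 libraries had 1566 to 2728 CPM of the CA1 list. The library labelled CA3 dissociated replicate 1 had 1609 CPM of the CA1 list and 292.4 CPM of the CA3 list, and the library labelled CA3 control replicate 1 had 2058 CPM of the CA1 list and 153.4 CPM of the CA3 list. CA3 replicate 4 had 103.2 CPM of the CA1 list and 1218 CPM of the CA3 list in dissociated tissue, and 780.9 CPM and 779.7 CPM in control tissue. DG control replicate 2 had 439.1 CPM over 6 granule cell markers, against 1454 CPM in DG control replicate 3, and carried 732.3 CPM of the CA3 list. DG dissociated replicate 3, a shallow library, had 483.9 CPM of the granule cell list and 359.0 CPM of the CA1 list. Comparisons between subregions are given below with and without 4 libraries that depart from their labels: CA1 dissociated 3, CA3 dissociated 1, CA3 control 1 and DG control 2. These 4 were chosen after seeing the data.

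The sequences that set the receptor variants apart come first, because the reads of Grm5 and Grm7 divide between them. Grm5 (ENSMUSG00000049583) lies on the forward strand at chr7:87584168-88134907 of GRCm38, by the GENCODE M21 annotation. Its coding transcripts Grm5-001 (1171 codons, the mGluR5a form) and Grm5-002 (1203 codons, mGluR5b) differ in coding sequence by 1 cassette exon of 96 bases at chr7:88116193-88116288. The transcripts also differ outside it, since Grm5-001 (8047 bases) has 2 more exons at its start and a longer last exon than Grm5-002 (4500 bases). The 96-base exon is exon 8 of 9 in Grm5-002 and encodes part of the intracellular tail. It is printed here in capitals, from the forward strand, with 15 coding bases of the neighbouring exons in lower case on either side.
Grm5-002: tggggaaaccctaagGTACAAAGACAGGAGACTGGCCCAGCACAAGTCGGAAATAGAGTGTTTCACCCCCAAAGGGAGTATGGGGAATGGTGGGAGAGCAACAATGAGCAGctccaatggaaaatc

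Grm7 (ENSMUSG00000056755) lies on the forward strand at chr6:110645581-111567230. Grm7-001 (915 codons, mGluR7a) and Grm7-003 (922 codons, mGluR7b) share their first 2698 coding bases and then end differently. In Grm7-003 a 92-base exon at chr6:111501510-111501601, exon 10 of 11, supplies the end of the coding sequence. In Grm7-001 that end comes from exon 10 of 10, which starts at 111566018. The last 15 shared coding bases are printed in lower case and the unshared coding ends in capitals, 50 bases in Grm7-001 and 71 bases in Grm7-003.
Grm7-001: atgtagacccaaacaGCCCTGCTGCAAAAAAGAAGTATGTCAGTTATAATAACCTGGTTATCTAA
Grm7-003: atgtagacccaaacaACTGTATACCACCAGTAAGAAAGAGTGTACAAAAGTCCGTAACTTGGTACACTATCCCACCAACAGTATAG

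Grm5 was the most abundant member in CA1, and it had the smallest treatment p of the members without passing the threshold. In CA1 the dissociated libraries (replicates 1, 2 and 3) had 243.0, 225.7 and 204.6 CPM, against 450.8, 400.1 and 430.6 CPM in the control libraries. No dissociated CA1 library reached the level of any control CA1 library. In CA3 the dissociated libraries (replicates 1 and 4) had 213.0 and 159.0 CPM, against 439.0 and 190.9 CPM in control libraries. The high CA3 control value belonged to the library that carried CA1 markers, and the groups overlapped. In DG the dissociated libraries (replicates 3 and 4) had 124.9 and 243.0 CPM, against 162.7 and 229.7 CPM in control libraries (replicates 2 and 3), so the groups overlapped.

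Fitted over all 14 libraries with subregion as a covariate, Grm5 had a log2 fold change of -0.62 ± 0.23 (SE) for dissociated against control tissue. Its unadjusted p was 0.0117 and its adjusted p 0.252 (edgeR quasi-likelihood test, Benjamini-Hochberg over 13063 genes), so it was not called at 0.05. Within CA1 the log2 fold change was -0.92 ± 0.33 (adjusted p = 0.299), within CA3 -0.76 ± 0.40 (adjusted p = 1) and within DG 0.02 ± 0.42 (adjusted p = 0.992). Without the 4 departing libraries the pooled value was -0.52 (adjusted p = 0.432), and -0.37 (adjusted p = 0.492) without the shallow libraries as well. The treatment effect in CA1 minus that in DG was -0.94 ± 0.54 (edgeR adjusted p = 0.448), so a difference between subregions was not shown. With a replicate block within subregions, an alternative setting, the pooled Grm5 value was called (-0.83, edgeR adjusted p = 0.03). Non-overlap of 3 against 3 CA1 libraries was common, since 23.1% of all tested genes showed it. Among the 5 members Grm5 alone showed it in CA1, while 3 (Grm2, Grm3 and Grm7) did in CA3 and 0 in DG, where 33.8% and 40.5% of tested genes did. Leaving out DG dissociated replicate 4 brought Grm5 past the threshold, with a log2 fold change of -0.84 (adjusted p = 0.0488). Of the CA1 pyramidal markers, 5 were tested by treatment and edgeR called 0, with 1 lower at an unadjusted p under 0.05 and 0 called by DESeq2. All 5 had a negative log2 fold change, with a median of -0.85, beside -0.11 over all tested genes. Within subregions that median was -0.88 in CA1, -0.76 in CA3 and 0.08 in DG. The CA1 list summed to 2314, 1566 and 151.8 CPM in CA1 dissociated replicates 1, 2 and 3, the last a departing library, against 2204 to 2728 CPM in CA1 controls. CA1 dissociated replicate 1 was thus inside the control range of these markers, while its Grm5 (243.0 CPM) was below every CA1 control. The part of these markers in the Grm5 values was not tested, nor was that of the microglial and oligodendrocyte markers given above.

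None of the other members was called between dissociated and control tissue either: 0 of the 5 members tested passed, where 0.773% of all tested genes did. In edgeR 1 of the 5, Grm5, had an unadjusted p under 0.05, and DESeq2 called 0. The median log2 fold change of the 5 was -0.08, beside -0.11 over all tested genes. Within subregions 0 members were called in CA1, CA3 or DG, where 0.191%, 0% and 0.161% of tested genes were called. In CA3 no gene passed in edgeR or DESeq2, and 523 had an unadjusted p under 0.05 in edgeR. In those fits, members with an unadjusted p under 0.05 numbered 1 in CA1 (Grm5), 1 in CA3 (Grm3) and 0 in DG, and DESeq2 called 0 in each. Of the 5 members, 0 differed in treatment effect between CA1 and DG, CA3 and DG or CA1 and CA3, where edgeR called 0.00766%, 0% and 0% of genes. None of these member differences had an unadjusted p under 0.05, and DESeq2 called 0 of the members.

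**Figure D1:**
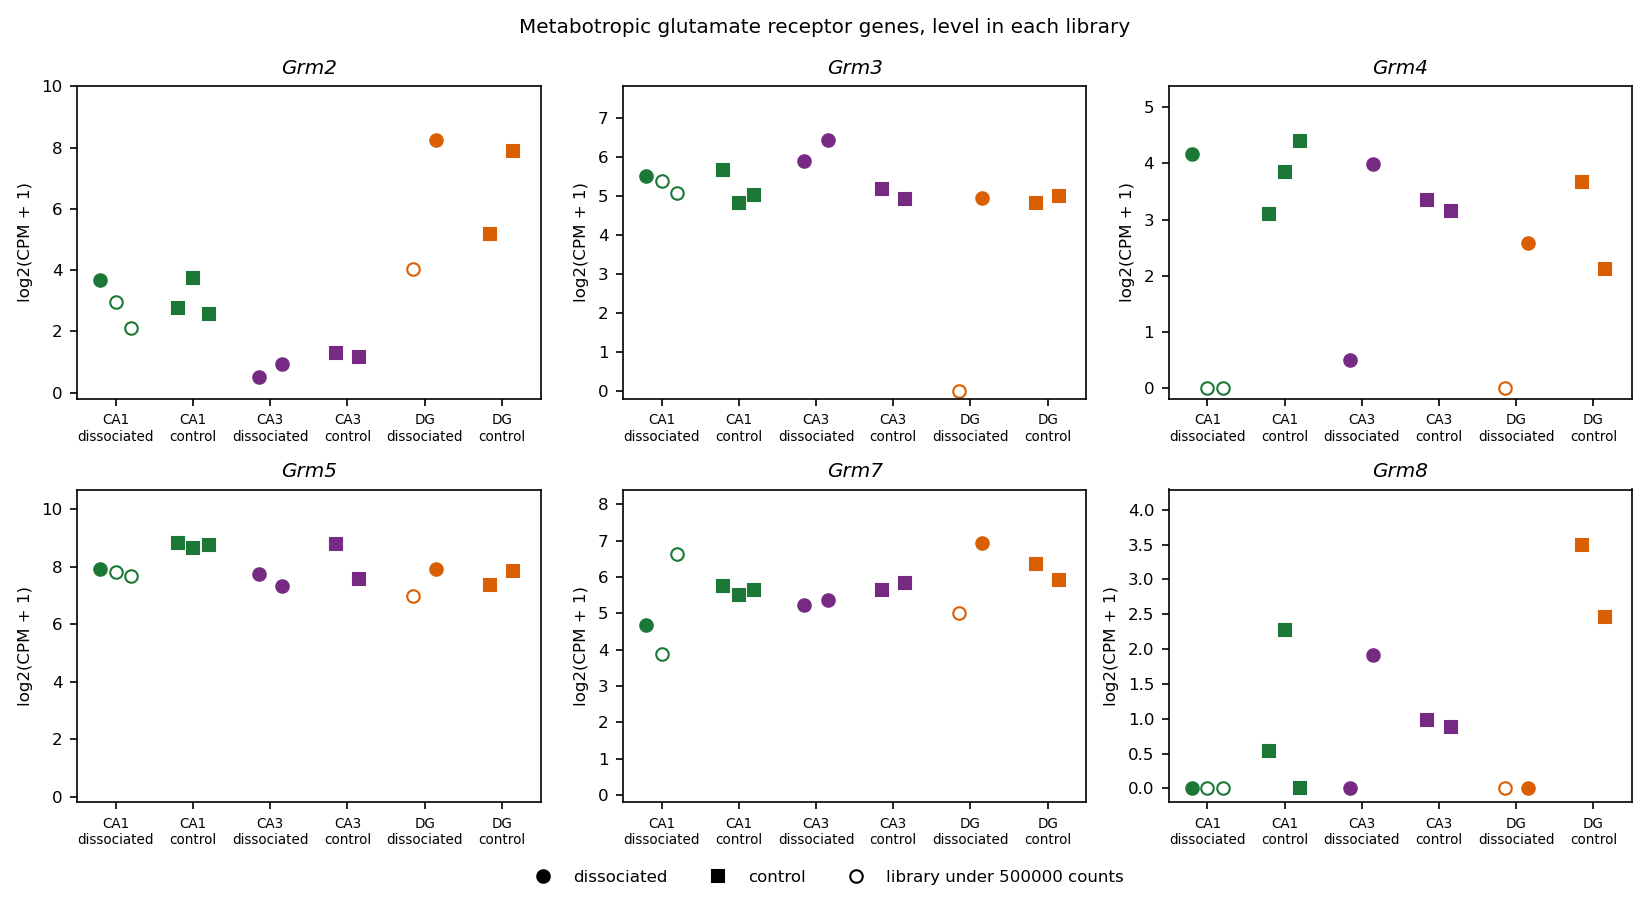
Level of each of the 6 receptor genes in every library, as log2(CPM + 1) on the vertical axis and the 6 groups on the horizontal axis. Circles are dissociated and squares control libraries, green is CA1, purple CA3 and orange DG, and open symbols are libraries under 500000 counts. Grm2 spans 15.6 to 305.8 CPM in DG and 0.411 to 12.4 CPM elsewhere, and Grm5 in CA1 lies between 204.6 and 243.0 CPM in dissociated and between 400.1 and 450.8 CPM in control libraries.

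Grm2 encodes a group II autoreceptor, and its gene (ENSMUSG00000023192, reverse strand, chr9:106643095-106656082) set DG apart from both pyramidal subregions. The CA1 libraries had 11.9, 6.84 and 3.30 CPM in dissociated tissue and 5.81, 12.4 and 4.92 CPM in control tissue. CA3 had 0.411 and 0.930 CPM in dissociated and 1.46 and 1.25 CPM in control tissue, from 8 counts in all 4 libraries together. DG had 15.6 and 305.8 CPM in dissociated and 35.2 and 234.1 CPM in control tissue. Every DG library was above every CA1 library, and every CA1 library was above every CA3 library. DG dissociated replicate 3 and CA1 dissociated replicates 2 and 3 each held 1 Grm2 count, where 3 counts equal 45.5, 22.2 and 9.97 CPM, so their places in that order were not resolved. By treatment the groups overlapped in CA1 and DG, and the log2 fold change was 0.22 ± 0.50 over all libraries (edgeR adjusted p = 0.893).

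The Grm2 log2 fold change was -4.19 ± 0.53 for CA1 against DG (adjusted p = 8.1e-05 by the edgeR quasi-likelihood test, the ninth smallest p of 13063 genes). For CA3 against DG it was -7.23 ± 0.76 (edgeR adjusted p = 9.31e-06). Grm2 was the 1 member of 5 called in either comparison. Among all tested genes, 4.06% were called between CA1 and DG and 1.77% between CA3 and DG. Non-overlapping libraries were found for 3.49% of tested genes between CA1 and DG and for 5.75% between CA3 and DG. In control libraries alone the values were -4.06 ± 0.71 (adjusted p = 0.00492) and -6.61 ± 1.03 (adjusted p = 0.00848), where 1.68% and 0.176% of tested genes were called. The control-only calls were lost without DG control replicate 3 (-2.04, adjusted p = 0.506, and -4.61, adjusted p = 0.425), and that of CA3 also without CA3 control replicate 1 (adjusted p = 0.163) or 4 (adjusted p = 0.118).

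Without the 4 libraries that depart from their subregion labels, the Grm2 differences were -4.40 (CA1 against DG, adjusted p = 1.04e-06) and -7.40 (CA3 against DG, adjusted p = 7.16e-06). Without the shallow libraries as well, they were -4.64 and -7.70, with 8 libraries left. Both exclusions were chosen after seeing the data. They took out the DG libraries at 35.2 and 15.6 CPM of Grm2 and left those at 234.1 and 305.8 CPM. The larger differences are therefore not separate support. On log2(TPM + 0.1) values, limma did not call either (adjusted p = 0.0954 and 0.0819). Between CA1 and CA3, Grm2 had a log2 fold change of 3.04 ± 0.76 (unadjusted p = 0.000595, edgeR adjusted p = 0.161). It was not called, although its libraries did not overlap, which 1.63% of tested genes also showed. In that comparison edgeR called 0 of 5 members and 0.115% of tested genes, 1 member (Grm2) had an unadjusted p under 0.05, and DESeq2 called 0. Without DG control replicate 2 in the fit, Grm2 passed (3.08, adjusted p = 0.0353).

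Within DG, the 2 libraries with more of the granule cell markers also had more Grm2. DG dissociated replicate 4 and DG control replicate 3 had 1232 and 1454 CPM of the list and 305.8 and 234.1 CPM of Grm2. DG dissociated replicate 3 and DG control replicate 2 had 483.9 and 439.1 CPM of the list and 15.6 and 35.2 CPM of Grm2. The 15.6 CPM rests on 1 count, in a library where 3 counts equal 45.5 CPM. Outside DG the list summed to 43.5 to 154.4 CPM in CA1 and 25.8 to 76.2 CPM in CA3, with up to 2 of its 6 genes at 0 in a library. CA1 did not show the order seen in DG. There, control replicates 3 and 1 had the most of the list (154.4 and 122.5 CPM) with 4.92 and 5.81 CPM of Grm2. CA1 control replicate 2 and dissociated replicate 1 had the least (43.5 and 51.1 CPM) with 12.4 and 11.9 CPM of Grm2. Among other cell types, edgeR called 2 of 10 oligodendrocyte markers lower in CA1 than in DG, with all 10 lower at an unadjusted p under 0.05 and 3 called by DESeq2. It called 2 of 8 interneuron and 1 of 7 excitatory neuron markers higher. Of 10 astrocyte markers it called 0, with 3 lower at an unadjusted p under 0.05 and 1 called by DESeq2. The part of these lists in the Grm2 values was not tested.

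**Figure D2:**
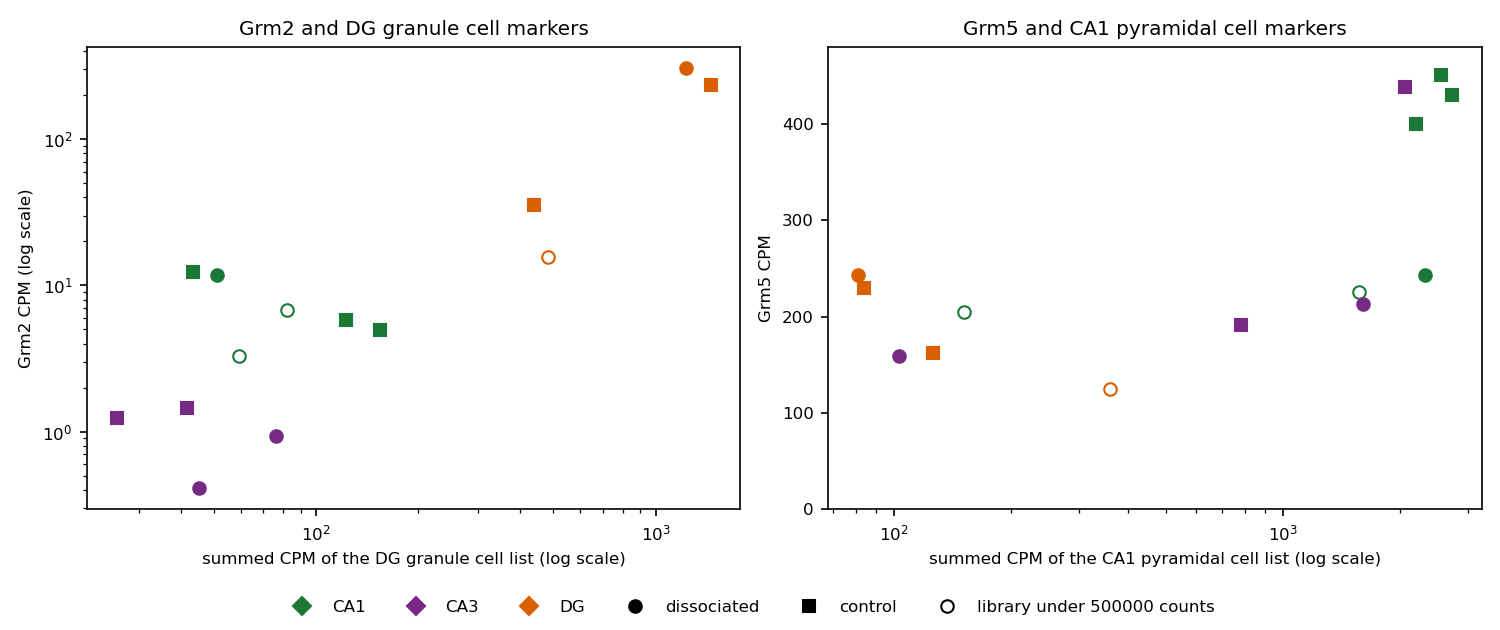
Left, Grm2 CPM against the summed CPM of 6 DG granule cell markers, both on log scales. Right, Grm5 CPM on a linear scale against the summed CPM of 6 CA1 pyramidal markers on a log scale. Each symbol is 1 library, coloured by its labelled subregion, with circles for dissociated and squares for control tissue. The 4 DG libraries are highest in both Grm2 and granule markers. The 4 control libraries at 400.1 to 450.8 CPM of Grm5 all have at least 2058 CPM of CA1 markers. CA1 dissociated replicate 1 has 2314 CPM of CA1 markers with 243.0 CPM of Grm5. CA1 dissociated replicate 2 and CA3 dissociated replicate 1 have 1566 and 1609 CPM with 225.7 and 213.0 CPM of Grm5.

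Between subregions, Grm5 ran higher in CA1 than in DG without a call. The log2 fold change was 0.68 ± 0.28 for CA1 against DG (unadjusted p = 0.0263, edgeR adjusted p = 0.229) and 1.12 ± 0.37 in control libraries alone (adjusted p = 0.176). Over both preparations but without the 4 departing libraries it was 0.67 (adjusted p = 0.211). Leaving out DG dissociated replicate 4 from all libraries gave 1.08 and an adjusted p of 0.0466. For CA3 against DG it was 0.30 ± 0.30, and -0.30 without the 4 departing libraries, so no direction can be given. For CA1 against CA3 it was 0.37 ± 0.27 (adjusted p = 1).

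CA3 control replicate 1, with CA1 markers at 2058 CPM, had 439.0 CPM of Grm5, inside the range of the CA1 controls, while CA3 control replicate 4 had 190.9 CPM. Without the 4 departing libraries the CA1 against CA3 difference was 0.97 (edgeR adjusted p = 0.183). Without the shallow libraries as well it was 1.07 (adjusted p = 0.0303), with 1 CA3 library left in each preparation. Among the dissociated libraries with at least 1566 CPM of CA1 markers, Grm5 stood at 243.0, 225.7 and 213.0 CPM.

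Grm3, the other group II gene (ENSMUSG00000003974, reverse strand, chr5:9485541-9725170), kept between 27.1 and 50.1 CPM in every control library. Dissociated libraries had 44.3, 41.0 and 33.0 CPM in CA1, 58.4 and 85.5 CPM in CA3 and 0 and 29.8 CPM in DG. Control libraries had 50.1, 27.1 and 31.3 CPM in CA1, 35.4 and 29.6 CPM in CA3 and 27.1 and 30.9 CPM in DG. The CA3 dissociated libraries were the highest of all 14, and the 0 in DG dissociated replicate 3 came from a library in which 3 counts would equal 45.5 CPM.

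For dissociated against control tissue Grm3 had a log2 fold change of 0.38 ± 0.32 (edgeR adjusted p = 0.658). In CA3 alone it was 1.14 ± 0.50 (unadjusted p = 0.0353, adjusted p = 1). The CA3 libraries did not overlap by treatment. The same CA3 dissociated libraries had astrocyte marker sums (10 genes) of 3002 and 7168 CPM, against 2943 and 2513 CPM in CA3 control libraries. Their oligodendrocyte precursor sums (6 genes) were 586.4 and 929.6 CPM, against 249.1 and 216.7 CPM. Oligodendrocyte sums (10 genes) were 10998 and 12044 CPM, against 3296 and 3246 CPM. In DG the astrocyte sums were also higher in dissociated (5369 and 5809 CPM) than in control libraries (3537 and 2252 CPM). Grm3 was not higher there, at 29.8 CPM in dissociated replicate 4 against 27.1 and 30.9 CPM in control libraries, with dissociated replicate 3 not resolved. The part of these lists in the Grm3 values was not tested. Between subregions Grm3 had 0.43 ± 0.38 for CA1 against DG, 0.80 ± 0.42 for CA3 against DG and -0.37 ± 0.36 for CA1 against CA3, none of them called (adjusted p = 0.67, 0.467 and 1). Without the 4 departing libraries these were 0.62, 0.98 and -0.35, again with none called.

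Grm7, the presynaptic group III receptor, spread more widely in dissociated than in control tissue. Dissociated libraries had 24.9, 13.7 and 99.0 CPM in CA1, 36.6 and 40.0 CPM in CA3, and 31.2 and 120.7 CPM in DG. Control libraries had 52.8, 44.6 and 49.2 CPM in CA1, 49.5 and 56.7 CPM in CA3, and 81.4 and 59.1 CPM in DG. The dissociated libraries thus spanned 13.7 to 120.7 CPM and the control libraries 44.6 to 81.4 CPM, the dissociated extremes of CA1 resting on 2 counts in replicate 2 and 30 counts in replicate 3.

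The Grm7 log2 fold change for treatment was -0.08 ± 0.32 (edgeR adjusted p = 0.945). Against DG it was -0.75 ± 0.38 in CA1 (unadjusted p = 0.0633, adjusted p = 0.358) and -0.79 ± 0.41 in CA3 (unadjusted p = 0.0664, adjusted p = 0.462). CA1 against CA3 gave 0.04 ± 0.37 (adjusted p = 1). Without the 4 departing libraries these were -1.06, -0.75 and -0.31, none of them called. In control tissue alone the Grm7 difference was -0.52 ± 0.50 for CA1 against DG (edgeR adjusted p = 0.87).

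Grm4, a group III gene best known from cerebellar granule cells (ENSMUSG00000063239, reverse strand, chr17:27422387-27521403), was low throughout. Dissociated libraries had 16.9, 0 and 0 CPM in CA1, 0.411 and 14.9 CPM in CA3, and 0 and 4.96 CPM in DG. Control libraries had 7.60, 13.3 and 20.1 CPM in CA1, 9.23 and 7.92 CPM in CA3, and 11.7 and 3.36 CPM in DG. The libraries without a count were the 3 shallow ones, where a count of 0 allows 9.97 to 45.5 CPM. Its log2 fold changes were -0.53 ± 0.68 for treatment, 0.96 ± 0.87 for CA1 against DG, 0.44 ± 0.93 for CA3 against DG and 0.52 ± 0.77 for CA1 against CA3, with adjusted p between 0.672 and 1. The treatment value turned to 0.23 without the 4 departing libraries, so no direction can be given. CA3 against DG (-0.26) and CA1 against CA3 (-0.04) each changed sign without 1 library. Without the 4 departing libraries the log2 fold changes were 1.96 for CA1 against DG, 1.61 for CA3 against DG and 0.36 for CA1 against CA3 (adjusted p = 0.224, 0.434 and 0.976).

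Grm8 (ENSMUSG00000024211, reverse strand, chr6:27275119-28135178), the remaining group III gene, did not pass the filter on low counts and was not tested. The dissociated libraries held 3 counts in all, from CA3 replicate 4, of 9575373 counts, or 0.313 CPM with an exact 95% Poisson interval of 0.0646 to 0.916. The control libraries held 73 counts of 22934594, or 3.18 CPM with an interval of 2.49 to 4.00. These intervals cover counting error only and leave out the spread between libraries. By library the control counts were 1, 26 and 0 in CA1, 2 and 2 in CA3, and 14 and 28 in DG, so 1 CA1 library and the DG libraries held nearly all of them. In DG dissociated tissue 0 counts of 664662 allow up to 4.51 CPM, somewhat below the 5.70 CPM pooled over DG controls. The exact Poisson intervals overlapped, reaching 5.55 CPM in dissociated and running from 4.11 to 7.70 CPM in control DG. A difference there was not resolved.

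**Figure D3:**
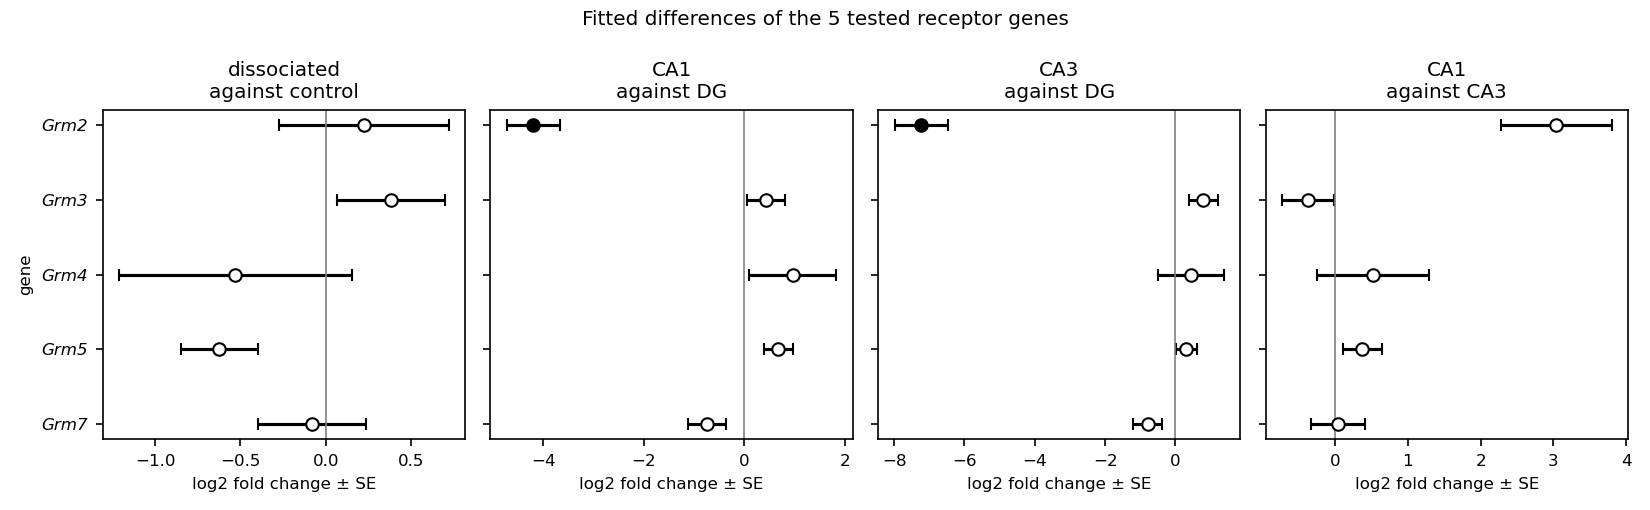
Fitted log2 fold changes with standard errors for the 5 tested receptor genes in 4 comparisons over all 14 libraries. Filled points passed an adjusted p of 0.05. Only Grm2 is filled, at -4.19 for CA1 against DG and -7.23 for CA3 against DG, and the horizontal axes differ between panels.

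Levels were compared between genes on the TPM scale, which divides by transcript length. In CA1 control libraries Grm5 came first at 129.5 to 150.4 TPM, above Grm7 at 37.4 to 63.4 TPM with no overlap. Grm3 followed at 20.3 to 37.5 TPM, below Grm7 in all 3 libraries although the ranges touched. Grm4 (3.74 to 10.4 TPM), Grm2 (2.61 to 8.86 TPM) and Grm8 (0 to 8.04 TPM) overlapped and their order was not resolved. In CA1 dissociated libraries Grm5 stood at 49.96 to 63.4 TPM and was again first in every library, while Grm3 (21.1 to 25.2 TPM) and Grm7 (5.99 to 57.5 TPM) overlapped.

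CA3 and DG had other orders. In CA3, Grm5 (40.1 to 46.9 TPM), Grm3 (32.5 to 46.7 TPM) and Grm7 (32.5 to 42.4 TPM) overlapped in dissociated libraries. In CA3 control libraries Grm5 had 146.8 and 49.9 TPM and overlapped Grm7, which had 40.6 and 50.1 TPM. Grm2 reached at most 1.18 TPM in CA3. In DG dissociated libraries Grm7 had 119.9 and 165.5 TPM, Grm5 25.7 and 66.1 TPM and Grm2 10.9 and 171.8 TPM. Of that Grm7 level, 112.6 TPM in replicate 3 and 104.8 TPM in replicate 4 came from the short transcript Grm7-005, from 1 and 6 estimated counts, so the order of the 3 genes was not resolved. In DG control libraries Grm2 (23.3 and 137.7 TPM), Grm5 (42.5 and 65.3 TPM) and Grm7 (39.3 and 49.5 TPM) overlapped, so the lead was not resolved.

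Part of the Grm7 TPM rests on short annotated transcripts. Grm7-004 has 418 bases and Grm7-005 has 386 bases. Grm7-005 alone reached 69.0% of the gene's TPM, from 8.69 estimated counts in CA3 dissociated replicate 1. Over all libraries the median Grm7 level was 41.5 TPM with these transcripts and 27.7 TPM from transcripts of at least 1000 bases, a limit chosen after seeing the data. Its place between Grm5 (59.9 TPM) and Grm3 (22.1 TPM) by median stayed the same.

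**Figure D4:**
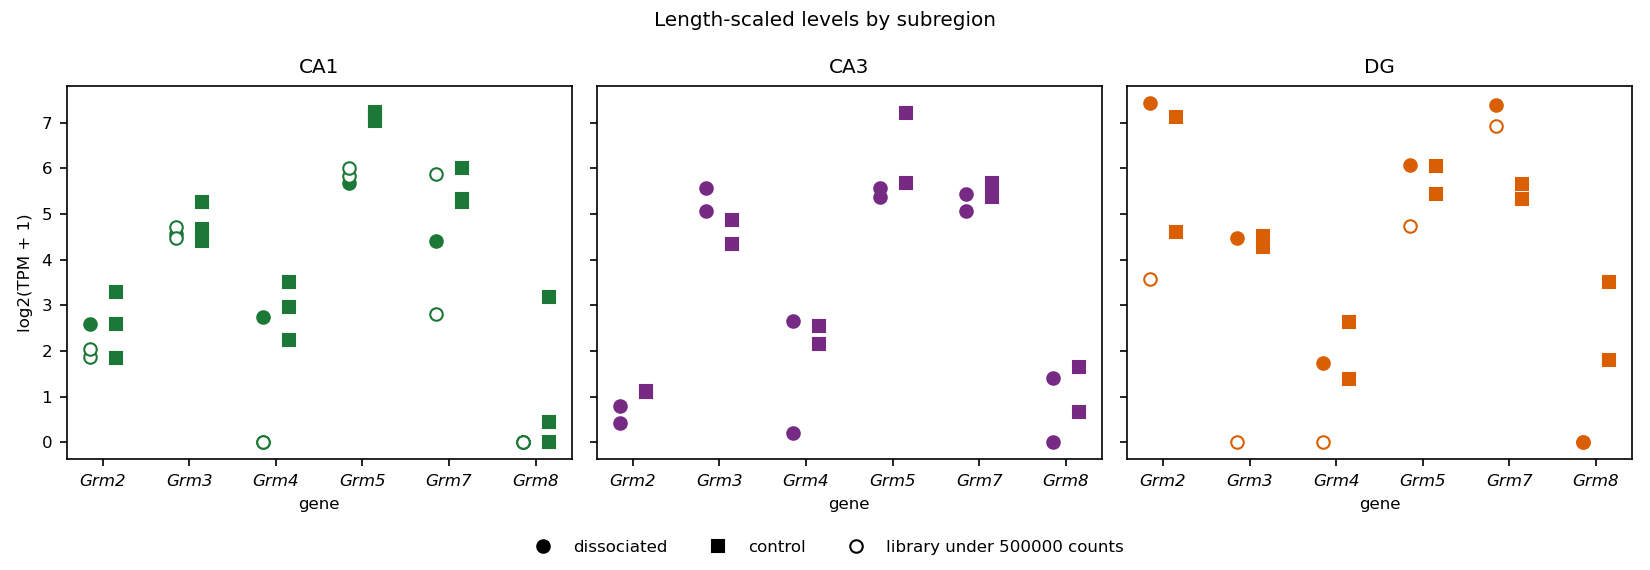
Levels of the 6 genes on a length-scaled axis, log2(TPM + 1), with 1 panel per subregion. Circles (left) are dissociated and squares (right) control libraries, and open symbols are libraries under 500000 counts. Grm5 leads in CA1, and in DG Grm2, Grm7 and Grm5 overlap at the top.

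Grm5-002, the transcript with the exon printed above, held less of the estimated Grm5 TPM than the transcripts without it in every library with at least 20 Grm5 counts. The share of Grm5-002 in the TPM of the gene was 22.9%, 23.6% and 0% in CA1 dissociated libraries, against 27.4%, 35.4% and 40.8% in CA1 control libraries. CA3 had 17.4% and 47.4% in dissociated and 29.0% and 19.2% in control libraries. DG had 10.9% in dissociated replicate 4 and 12.5% and 21.7% in control libraries. The CA1 groups did not overlap, but replicates 2 and 3 of the dissociated group rest on 33 and 62 Grm5 counts. The remainder was Grm5-001, except in CA1 dissociated replicate 3, where Grm5-201, which has the same coding sequence as Grm5-001, took 43.5%. These shares are kallisto's division of shared reads, with no error of their own, and were not tested. They can rest on the unlike ends of the transcripts as well as on the exon, so they are shares of transcripts and not of exon inclusion.

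**Figure D5:**
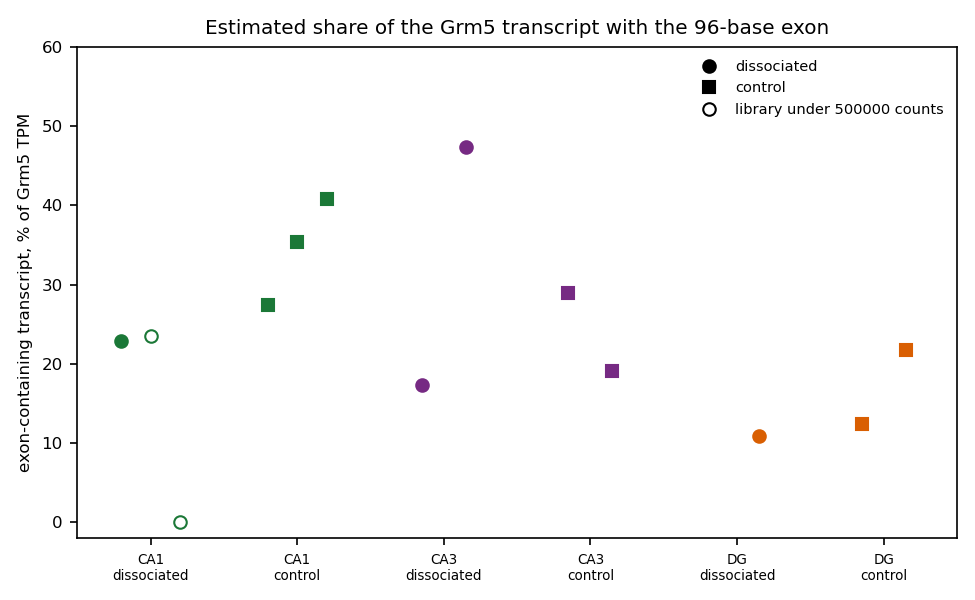
Estimated share of Grm5 TPM held by Grm5-002, the transcript with the 96-base exon, by group. Each symbol is 1 library with at least 20 Grm5 counts, open where the library holds under 500000 counts. CA1 dissociated libraries lie between 0% and 23.6% and CA1 control libraries between 27.4% and 40.8%.

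For Grm7, the division between the printed endings was unstable between libraries. Over all libraries Grm7-001 drew 1003 estimated counts and Grm7-003 drew 337.8. Grm7-003 took 0% of the gene's TPM in CA3 dissociated replicate 1, CA3 control replicate 4 and DG control replicate 2, and as much as 80.4% in CA1 dissociated replicate 3, which held 30 Grm7 counts. Grm3 had 1 transcript in the files, and Grm4 came from Grm4-002 at 90.7% to 100% in the 4 libraries with at least 20 Grm4 counts.

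The signalling partners were described from lists drawn up with earlier results of these data known. Of the 13 genes of the group I pathway (Gq, phospholipase C, inositol trisphosphate and diacylglycerol), 0 were called between dissociated and control tissue, with a median log2 fold change of -0.14. Unadjusted p under 0.05 was found for 7 of them by edgeR, 5 higher and 2 lower, and DESeq2 called 0. Over all 13063 tested genes, those at an unadjusted p under 0.05 numbered 1622 by treatment, 2050 for CA1 against DG, 1572 for CA3 against DG and 702 for CA1 against CA3. Gnaq, the gene of the Gq alpha subunit itself, had a log2 fold change of -0.75 ± 0.25 (edgeR adjusted p = 0.205), with the same sign as Grm5.

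Across subregions, Itpr1, an inositol trisphosphate receptor, was higher in CA1 than in DG by a log2 fold change of 2.04 ± 0.46 (edgeR adjusted p = 0.0111), and Dgkz, a diacylglycerol kinase, by 1.05 ± 0.24 (adjusted p = 0.0131). The list had 3 of 13 genes called higher and 0 lower, with a median of 0.05 beside -0.04 over all tested genes, of which 4.06% were called. On log2(TPM + 1) values the Itpr1 call was lost (2.02, adjusted p = 0.122). For CA3 against DG, 1 of 13 was called higher and 0 lower, with a median of 0.04 beside 0.04 over all tested genes, of which 1.77% were called. Between CA1 and CA3 edgeR and DESeq2 called 0 of 13, with 2 at an unadjusted p under 0.05, Dgkz (0.54 ± 0.24) and Itpr1 (0.91 ± 0.43).

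Of the 22 genes of group II and III signalling (Gi/o subunits, adenylyl cyclases and GIRK potassium channels), Gnaz was called in dissociated tissue. Gnaz encodes the Gz alpha subunit, which inhibits adenylyl cyclase. It had 411.0, 1860 and 3363 CPM in CA1 dissociated, 802.7 and 1038 CPM in CA3 dissociated and 11831 and 2715 CPM in DG dissociated libraries. Control libraries had 1055, 225.6 and 187.1 CPM in CA1, 272.9 and 340.5 CPM in CA3 and 469.1 and 301.5 CPM in DG.

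The highest Gnaz values were those of DG dissociated replicate 3 and CA1 dissociated replicate 3, both shallow. The groups overlapped, since CA1 dissociated replicate 1 was below CA1 control replicate 1 and DG control replicate 2. The log2 fold change was 2.44 ± 0.50 (edgeR adjusted p = 0.018). The call was lost without the shallow libraries (1.57, adjusted p = 0.272) and without the 4 departing libraries (2.03, adjusted p = 0.136). It was also lost without CA1 dissociated replicate 3 (2.23, adjusted p = 0.0596), CA1 control replicate 2 (2.34, adjusted p = 0.0517) or CA1 control replicate 3 (2.32, adjusted p = 0.0502). The list's median was -0.07, and 5 of 22 genes had an unadjusted p under 0.05. DESeq2 called Gnaz and Gnai2, a Gi alpha subunit gene (0.65 ± 0.23, edgeR adjusted p = 0.237). In the subregion comparisons edgeR called 0 of 22 genes, with 4, 6 and 4 at an unadjusted p under 0.05 for CA1 against DG, CA3 against DG and CA1 against CA3. DESeq2 called Gng2 for CA1 against DG, Gng7 for CA3 against DG and 0 for CA1 against CA3. The smallest edgeR p-values belonged to Gnao1 (0.68 ± 0.25), the Go alpha subunit, and Gng3 (1.10 ± 0.42) for CA1 against DG. For CA3 against DG they belonged to Gng7 (-1.61 ± 0.44, adjusted p = 0.0638) and Adcy1 (-2.24 ± 0.64, adjusted p = 0.0767), a calcium-stimulated adenylyl cyclase, and for CA1 against CA3 to Gng7 (0.97 ± 0.40) and Kcnj9 (0.73 ± 0.33).

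Among 21 tested genes listed as binding partners and regulators (Homer scaffolds, receptor kinases, RGS proteins and others), edgeR called 0 in all 4 comparisons. Unadjusted p under 0.05 was found for 3 genes by treatment, 4 for CA1 against DG, 7 for CA3 against DG and 2 for CA1 against CA3, and DESeq2 called Adrbk1, Cnih2, Rgs4 and none in that order. By treatment the smallest p-values were those of the receptor kinase gene Adrbk1 (0.53 ± 0.20) and Rgs4 (-0.53 ± 0.25), a brake on Gi/o and Gq signals. For CA1 against DG, Homer2, a scaffold that binds group I receptors, had 1.61 ± 0.54 (edgeR adjusted p = 0.106). Cnih2, on the list but known as an auxiliary protein of AMPA receptors, had 0.88 ± 0.26 (edgeR adjusted p = 0.0618) in that comparison. Rgs4 had -1.26 ± 0.34 (adjusted p = 0.0582) and Rgs14 1.90 ± 0.65 for CA3 against DG. For CA1 against CA3, Rgs4 had 0.83 ± 0.31 and Rgs8 -0.81 ± 0.38.

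Of 10 genes of glutamate clearance and release, edgeR called 0 in each comparison. Genes at an unadjusted p under 0.05 numbered 4 by treatment and 2 in each subregion comparison. Glul, the glutamine synthetase of astrocytes, had the smallest p by treatment (0.81 ± 0.21, edgeR adjusted p = 0.08) and was called by DESeq2. The vesicular transporter gene Slc17a8 had 1.88 ± 0.79, and 0.91 to 2.21 without 1 library. Its levels were 2.28, 0 and 39.6 CPM in CA1 dissociated, 0, 0.592 and 4.03 CPM in CA1 control, 18.1 and 57.6 CPM in CA3 dissociated and 6.80 and 18.8 CPM in CA3 control libraries. DG had 0 and 3.31 CPM in dissociated and 3.67 and 2.72 CPM in control libraries. The 39.6 CPM belonged to CA1 dissociated replicate 3, a shallow library with CA3 markers. Astrocyte markers ran from 1977 to 7168 CPM in dissociated and from 2174 to 3537 CPM in control libraries, with 0 of 10 called by edgeR, 6 of them higher at an unadjusted p under 0.05 and 2 called by DESeq2, and their part was not tested. Between subregions, Slc17a6, another vesicular glutamate transporter, had 2.06 to 13.7 CPM in CA1 dissociated and 4.48 to 11.8 CPM in CA1 control libraries. It was at 0 in all but 1 CA3 library (0.486 CPM) and in all but 2 DG libraries (15.6 CPM from 1 count, and 0.160 CPM). No fold change is given for it, since DG and CA3 held too few counts. EdgeR called it in neither comparison of CA1 with them (adjusted p = 0.188 and 0.228) and DESeq2 in both. Slc1a2, the main astrocytic glutamate transporter, had -0.70 ± 0.30 for CA1 against DG. For CA3 against DG, Slc17a8 had 2.35 ± 1.00 and Slc17a7 0.68 ± 0.32, and DESeq2 called 0. For CA1 against CA3, Slc17a8 had -2.32 ± 0.85.

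Of the other class C receptors, relatives in the same receptor class, 5 genes were tested. Gprc5b was lower in CA1 than in DG (-1.85 ± 0.28, edgeR adjusted p = 0.000341) and Gpr158 was higher (1.07 ± 0.31, adjusted p = 0.0477). The Gpr158 call was lost in 9 of 14 fits that left out 1 library each (adjusted p up to 0.182, without DG control replicate 3). None was called by edgeR by treatment, for CA3 against DG or for CA1 against CA3, with 1, 4 and 2 genes at an unadjusted p under 0.05, and DESeq2 called Gprc5b, Gprc5c and Gprc5b in that order. By treatment Gprc5b had 0.90 ± 0.23 (adjusted p = 0.0745) and Gpr158 -0.49 ± 0.24. For CA3 against DG, Gpr158 had 0.96 ± 0.32, and for CA1 against CA3, Gprc5b had -1.17 ± 0.27 (adjusted p = 0.113). Gprc5c was at 0 in all 4 CA3 libraries, so its fitted fold changes against CA3 depend on the prior count and are not given. It had 0 and 13.2 CPM in DG dissociated and 2.20 and 8.48 CPM in DG control libraries, and at most 3.30 CPM in CA1.

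The genes whose profile was most like each member were sought by Pearson correlation of log2 CPM over the 11 libraries of at least 500000 counts, among 11509 genes. These correlations are descriptions across libraries that share subregions, preparation and depth. Grm5 was closest to the NMDA receptor subunit genes Grin2a (r = 0.98) and Grin2b (r = 0.97) and to Ppp1r12a (r = 0.97). Grm2 was closest to Islr (r = 0.97), Ccdc85a (r = 0.96) and Hmgb1 (r = 0.95), and Grm3 to Nfic (r = 0.97), 2810459M11Rik (r = 0.89) and Cenpb (r = 0.89). Grm4 had lower values, with Stam2 (r = 0.85), Lnpk1 (r = 0.82) and Slc30a4 (r = 0.82), and Grm7 was nearest to Fam134c (r = 0.94), Telo2 (r = 0.93) and Phtf2 (r = 0.92). Members themselves were less alike, for example Grm2 and Grm7 at r = 0.62 and Grm2 and Grm3 at r = -0.54.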

How the data were processed

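The deposited gene table holds estimated counts: the authors' kallisto estimates per transcript, summed by gene symbol and rounded, which was checked against the deposited transcript tables (largest difference 0.5). TPM and estimated counts per transcript are kallisto's, per the file headers. The submitters' processing notes list FastQC, cutadapt, kallisto and DESeq2 with no version, and a build or annotation is not given in the sources used here. Of 58716 transcripts, 90.8% matched GENCODE M21 (GRCm38) in version and length, and positions and sequences come from that release.

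Rounded counts were tested with edgeR 4.0.16 (R 4.3.3), TMM scaling, quasi-likelihood test and Benjamini-Hochberg adjustment over 13063 genes left by filterByExpr (minimum count 10, total 15), with subregion and treatment as terms, or 1 mean per group for effects within subregions. A call is an adjusted p under 0.05. Gene TPM is the sum over transcripts. CPM uses TMM-scaled library sizes, while pooled values and the limit set by a count of 0 (3 counts) use raw totals. A transcript share needs 20 gene counts. Alternatives used DESeq2 1.42.0 and limma 3.58.1, pseudocounts 1 and 0.1, replicate blocks and left-out libraries. The treatment test was checked on simulated data, where it recovered 17.5%, 68% and 86% of genes changed by a log2 fold of 1, 2 and 3. Effects of a log2 fold of 1 or less could thus mostly go uncalled. The simulated counts held no subregion differences, and the changed genes were drawn at random from all levels. The shares recovered are therefore not those of any 1 member. Members and lists were chosen with earlier results of these data known. All 6 receptor genes are named in every comparison; of the lists, genes called, or else the 2 with the smallest p; and the 3 genes most like each tested member, among those of at least 5 CPM on average. The values of 1 gene of the signalling lists are not reported here.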

Additional observations from a re-analysis of the deposited data

Results flagged for a closer look

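Grm3 in DG dissociated replicate 3 stood at 0 CPM, far below the other 6 dissociated libraries (29.8 to 85.5 CPM) and the other 3 DG libraries (27.1 to 30.9 CPM). That library held 65887 counts, so a count of 0 allows up to 45.5 CPM and does not separate it from the other DG libraries. In groups of 4 to 10 samples, chance gives such a gap in about 1 of 20 groups.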

How the results depend on the processing

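The effect of the processing was read from the number of genes called, which in the fits reported above was 101 by treatment, 530 for CA1 against DG, 231 for CA3 against DG, 15 for CA1 against CA3, 46 by treatment within subregions and 1 for differences of treatment effect. In that order, DESeq2 called 478, 998, 492, 56, 310 and 31 genes. With no filter on low counts edgeR called 345, 900, 616, 127, 561 and 320, and without the 3 shallow libraries 14, 801, 366, 71, 432 and 335. Limma called 55, 164, 17, 0, 319 and 73 on log2(TPM + 1), and 27, 74, 1, 0, 416 and 276 on log2(TPM + 0.1). RLE scaling gave 160 by treatment. Without the 4 libraries that depart from their labels, an alternative chosen after seeing the data, the 3 subregion comparisons had 870, 536 and 179 calls, and 1217, 954 and 331 without the shallow ones as well. In control libraries alone they had 220, 23 and 0. Leaving out 1 library at a time gave 38 to 254 calls by treatment, 212 to 771 for CA1 against DG, 57 to 594 for CA3 against DG, 7 to 73 for CA1 against CA3, 13 to 135 within subregions and 0 to 60 for differences of treatment effect.

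Of the members, Grm2 was called in CA1 against DG and in CA3 against DG in all 14 fits without 1 library (-4.49 to -3.52 and -7.57 to -6.58) and in 8 of 9 other settings each; on log2(TPM + 0.1) members called were 0 in both. For CA1 against CA3, 1 member was called (Grm2) with no filter on low counts, and 2 (Grm2 and Grm5) without the departing and shallow libraries, against 0 in the reported fit and 0 to 1 without 1 library. By treatment 0 to 1 members were called without 1 library, for CA1 against DG 1 to 2, and for CA3 against DG 1. No called member changed sign. On the CPM scale 4 of 6 members kept their place in the order of median levels, since Grm4 (7.76 CPM) passed Grm2 (6.33 CPM). The median treatment log2 fold change of all tested genes was -0.11, -0.01 with RLE scaling, -0.64 on log2(TPM + 1) and -0.88 on log2(TPM + 0.1). The members did not shift alike. On log2(TPM + 1) their treatment values were -0.43 (Grm2), -0.50 (Grm3), -1.44 (Grm4), -0.93 (Grm5) and -0.11 (Grm7). In the reported fit they were 0.22, 0.38, -0.53, -0.62 and -0.08.

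Deviations of same-numbered samples correlated at -0.16 to 0.07 between preparations, and the numbers were not taken as pairs. This check was weak, since in groups of 2 libraries the deviations mirror each other. CA3 replicate 1 carried CA1 markers in both preparations (2058 CPM in control and 1609 CPM in dissociated tissue). CA1 replicate 3 did not match (2728 CPM in control and 151.8 CPM in dissociated tissue). Pairing by number was therefore not excluded. With a replicate block within subregions 380 genes and 1 member were called by treatment, Grm5 at -0.83 (adjusted p = 0.03). With a replicate block across subregions 281, 123 and 27 genes were called for CA1 against DG, CA3 against DG and CA1 against CA3, and 1 member in the last, Grm2 at 4.06 (adjusted p = 0.0427). Depth limits Grm2 (1 count in each), Grm3 and Grm4 in the shallow libraries and Grm8 throughout. It also limits Grm7 (2 counts each in CA1 dissociated replicate 2 and DG dissociated replicate 3) and Grm5 (8 counts in DG dissociated replicate 3). In CA3, Grm2 rests on 1 to 3 counts per library. The cause of these shifts was not tested.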
